A study of Mus musculus with 6 samples.

Results

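The S100 genes other than calprotectin were followed in oviducts of mice with 1 disrupted Wt1 allele. In all, 10 S100 genes were looked for, and the members were every probe set whose platform annotation names only 1 of them. That gave 14 probe sets for 9 genes, out of 45037 probe sets and 18193 genes on the array. S100a1, S100a16 and S100b had 2 probe sets each and S100a10 had 3, while S100a4, S100a6, S100a13, S100a14 and S100g had 1 each. S100a11 had 0, since its probe set also carries the names of pseudogenes.

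The 6 samples were 3 oviduct samples of genotype Wt1 ko/+, called heterozygous here, and 3 of genotype Wt1 +/+, called wild type. All were of the MF1 strain, an outbred stock. Wild-type males sired the litters, and the oviducts were taken at embryonic day 2.5, while embryos are in the oviduct. The age of the females and the structure of the disrupted allele are not given in the sources used here. No label tells if a sample was 1 animal or a pool, so the spread behind each p-value is that of these 6 samples and may be partly technical. The whole oviduct was used, so fewer cells of a type and less RNA per cell cannot be told apart.

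S100 proteins are small calcium-binding proteins of the EF-hand class that mostly work as dimers. Calcium opens a surface on the dimer that grips a target protein, such as an annexin, a myosin or a calcium channel. Most S100 genes lie side by side in a cluster, and each has its own range of cell types. S100g differs in that it acts as a calcium buffer and carrier in transporting epithelia, where vitamin D and oestrogen receptors control it.

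Values below are log2 intensities after quantile normalization, and a difference is heterozygous minus wild type on that scale. The two-sided test was limma's over all probe sets, with p-values adjusted by the Benjamini-Hochberg method and called under 0.05. Median intensities of the arrays lay between 151.6 and 167.8, and correlations between arrays, across genes, lay between 0.960 and 0.972. The 3' to 5' ratio of the Actb control, a sign of RNA or labelling quality, was 2.49, 1.67 and 1.71 in heterozygous replicates 1, 2 and 3, against 1.74, 2.40 and 5.90 in wild-type replicates 1, 2 and 3. The Wt1 level was 11.12, 11.27 and 11.79 in heterozygous replicates 1, 2 and 3, against 12.17, 12.06 and 11.67 in wild-type replicates 1, 2 and 3, so the array labelled heterozygous replicate 3 lay above wild-type replicate 3. Where that Wt1 probe set lies relative to the disrupted part of the gene is not given, so it is a weak check of the labels. Ovgp1, the main secretory glycoprotein of the oviduct, lay between 14.32 and 14.36 in heterozygous and between 14.26 and 14.29 in wild-type arrays, in the brightest range of the array.

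The stretches of DNA before the starts of 4 members are shown because these genes carry the points made below: S100a16 and S100a6 are the genes with a probe set lower in every heterozygous array, and S100g and S100a4 hold the letters of a nuclear receptor half-site. Each is the 250 bases before an annotated start, from RefSeq on build GRCm38.p6, 5′ to 3′ on the gene's strand. Capitals mark matches to AGGTCA (or TGACCT on the other strand), the half-site of several nuclear receptors, and to TATAAA, the TATA box.
S100a16, annotated start further upstream, chr3:90537004-90537253, plus strand: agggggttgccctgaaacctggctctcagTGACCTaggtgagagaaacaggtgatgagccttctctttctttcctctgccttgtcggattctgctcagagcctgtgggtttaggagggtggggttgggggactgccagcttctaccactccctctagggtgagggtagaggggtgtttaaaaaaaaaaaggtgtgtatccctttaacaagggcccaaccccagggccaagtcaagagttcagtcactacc
S100a16, annotated start further downstream, chr3:90540896-90541145, plus strand: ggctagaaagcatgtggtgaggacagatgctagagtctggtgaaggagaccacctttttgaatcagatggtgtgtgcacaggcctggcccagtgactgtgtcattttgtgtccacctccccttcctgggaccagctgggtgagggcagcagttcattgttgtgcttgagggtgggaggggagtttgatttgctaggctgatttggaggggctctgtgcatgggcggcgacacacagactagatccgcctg
S100a6, chr3:90612644-90612893, plus strand: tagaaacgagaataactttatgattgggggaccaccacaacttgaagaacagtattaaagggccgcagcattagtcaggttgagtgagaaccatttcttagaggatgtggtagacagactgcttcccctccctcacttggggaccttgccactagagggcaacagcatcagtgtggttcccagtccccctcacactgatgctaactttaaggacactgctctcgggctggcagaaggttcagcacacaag
S100a4, chr3:90603520-90603769, plus strand: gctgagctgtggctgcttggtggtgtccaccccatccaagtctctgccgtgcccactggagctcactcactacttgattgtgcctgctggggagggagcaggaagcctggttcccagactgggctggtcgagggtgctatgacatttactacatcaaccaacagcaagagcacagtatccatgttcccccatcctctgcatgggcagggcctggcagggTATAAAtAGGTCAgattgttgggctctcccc
S100g, chrX:162964600-162964849, minus strand: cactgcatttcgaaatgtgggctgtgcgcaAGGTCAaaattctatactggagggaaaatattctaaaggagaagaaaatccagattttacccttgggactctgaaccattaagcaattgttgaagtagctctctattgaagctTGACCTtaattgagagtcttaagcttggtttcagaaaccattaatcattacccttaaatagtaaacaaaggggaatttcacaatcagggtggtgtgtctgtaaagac

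Windows were found for 8 of the 10 genes, 9 windows in all. None of these 9 windows held GCGGGGGCG or GCGTGGGAG, both G-rich motifs reported for Wt1, or TCCTCCTCC, another motif reported for Wt1, on either strand. Of 32851 such windows of all genes, 2.57% held GCGGGGGCG, 0.405% held GCGTGGGAG and 2.45% held TCCTCCTCC, so an absence from a few windows is the usual case. The full palindromic oestrogen response element was in 0 of the 9 windows and in 0.0639% of all. The half-site AGGTCA was in 4 of the 9 windows, those of S100a4, S100a11, S100a16 and S100g, and in 14.02% of all. S100g held it at -220 and -107 bases from the start. In the S100a4 window a TATAAA at -31 was followed by AGGTCA at -24, and 12.4% of all windows held TATAAA. A match of letters is a description of the sequence, and binding was not measured.

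None of the S100 probe sets passed the threshold: the count was 0 of 14, where 0.00666% of all probe sets passed (3 of 45037), 0.00222% as higher and 0.00444% as lower. At an unadjusted p under 0.05 there was 1 of 14, where 5.18% of all probe sets stood. S100a16 and S100a6 each had a probe set that was lower in all heterozygous arrays than in all wild-type arrays, which makes 2 of 14, where 5.87% of all probe sets were lower without overlap. None of the 14 was higher without overlap, where 4.67% of all probe sets were. Differences of 9 were below 0 and of 5 above 0, with a median of -0.21, where 51.7% of all probe sets were below 0, 48.3% were above 0 and their median was -0.01. Probe sets of the same gene share transcripts, so the 14 are not independent. Of the 14, 2 had a mean below the median of all values, 7.31, and whether these dim ones were above background is unknown.

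**Figure D1:**
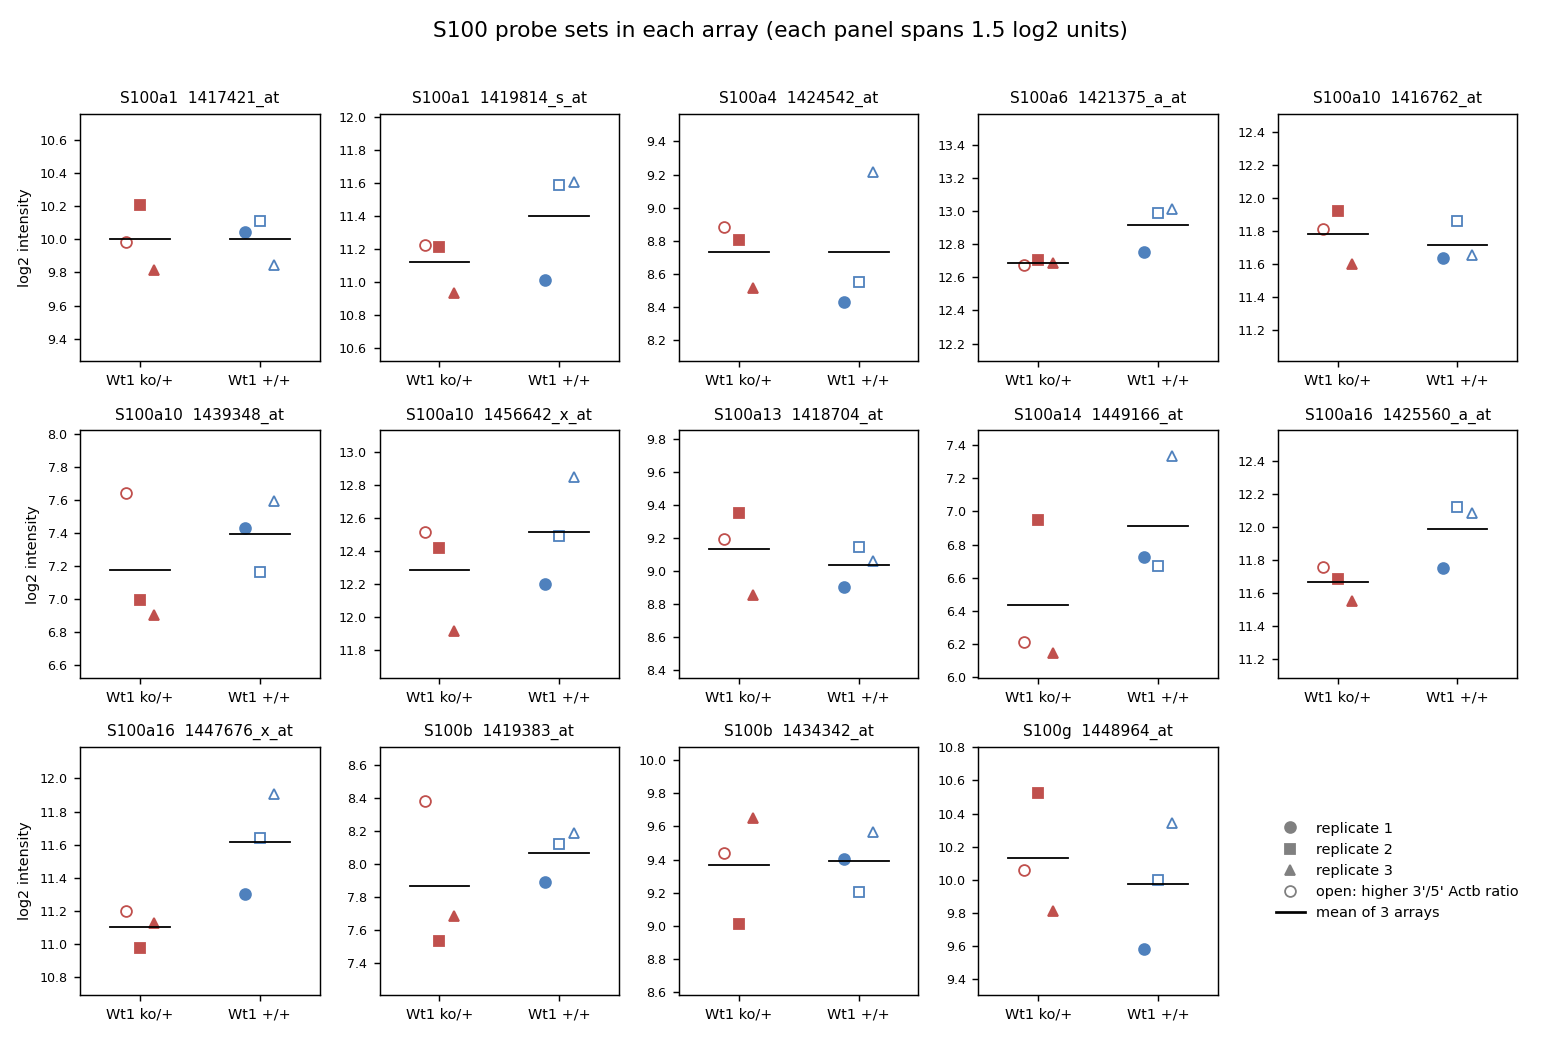
Log2 intensity (y axis, quantile normalized) of each S100 probe set in the 3 heterozygous arrays (left in each panel) and the 3 wild-type arrays (right), with a bar at the mean and open symbols for the 3 arrays with the higher 3' to 5' Actb ratio. Only S100a6 and the S100a16 probe set 1447676_x_at have all heterozygous points below all wild-type points.

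S100a16, a broadly expressed member of the family, had the smallest p among the members. At probe set 1447676_x_at it measured 11.20, 10.97 and 11.13 in heterozygous replicates 1, 2 and 3, against 11.30, 11.64 and 11.91 in wild-type replicates 1, 2 and 3. All heterozygous arrays were below all wild-type arrays, though heterozygous replicate 1 and wild-type replicate 1 were close. The means were 11.10 ± 0.12 in heterozygous and 11.62 ± 0.31 in wild-type oviducts (SD, n = 3 each), 1.43-fold lower. The difference of -0.52 (95% interval -1.01 to -0.02) did not pass after adjustment (limma p = 0.0425, adjusted p = 0.933; exact permutation p = 0.1, the smallest that 3 arrays against 3 allow). The suffix _x_at marks probes that may also bind similar transcripts.

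The other S100a16 probe set, 1425560_a_at, measured 11.75, 11.68 and 11.55 in heterozygous replicates 1, 2 and 3, against 11.75, 12.12 and 12.08 in wild-type replicates 1, 2 and 3. Here the groups touched, with heterozygous replicate 1 level with wild-type replicate 1. The difference was -0.32 (95% interval -0.73 to 0.08, limma adjusted p = 0.933). Both S100a16 probe sets thus stood lower in heterozygous oviducts on average, and their levels followed each other over the 6 arrays (r = 0.90, as a description). The 3 arrays of lower 3' to 5' ratio are 2 heterozygous arrays and 1 wild-type array, and the 3 of higher ratio are 1 heterozygous array and 2 wild-type arrays, so each value within a class rests on a single array of 1 genotype and has no test. Within the 3 arrays of lower ratio the S100a16 differences were -0.25 at 1447676_x_at and -0.14 at 1425560_a_at. Within the 3 of higher ratio they were -0.57 and -0.35 in the same order. With the ratio as a covariate they were -0.33 and -0.23.

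S100a6, or calcyclin, binds the Siah-interacting protein encoded by Cacybp and several annexins. Its probe set measured 12.67, 12.71 and 12.69 in heterozygous replicates 1, 2 and 3, against 12.75, 12.99 and 13.01 in wild-type replicates 1, 2 and 3. The heterozygous arrays were tightly grouped and all below the wild-type arrays, but the gap between the groups was narrow. The means were 12.69 ± 0.02 in heterozygous and 12.92 ± 0.14 in wild-type oviducts (SD, n = 3 each). The difference of -0.23 (95% interval -0.58 to 0.12) did not pass (limma adjusted p = 0.933, exact permutation p = 0.1). It was -0.06 within the arrays of lower 3' to 5' ratio and -0.33 within those of higher ratio. Over the 6 arrays S100a6 followed S100a16 (r = 0.94 with each S100a16 probe set, as a description across arrays that share their normalization).

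The ciliated cell markers were mixed, and 0 of 6 passed the threshold. Their summed intensity lay between 12949 and 15546 in heterozygous and between 16065 and 16710 in wild-type arrays, without overlap. Without Tppp3 that sum overlapped, at 8791 to 10973 in heterozygous and 10653 to 11796 in wild-type arrays. Of the 6, 4 had a difference below 0, while Dnah5, at 0.72, and the dim Spag6, at 1.18, were above 0 with overlap. Foxj1, the master regulator of motile cilia, differed by -0.31 (limma adjusted p = 0.782 over genes). Spag6 was at the floor on at least 1 array. The summed intensity of the smooth muscle markers, all 6 of them higher on average, lay between 32773 and 43761 in heterozygous and between 28961 and 31126 in wild-type arrays. Of these 6, 0 passed the threshold, and Des overlapped between the genotypes. The summed intensity of the secretory epithelium markers overlapped, at 55798 to 58071 in heterozygous and 54196 to 58731 in wild-type arrays. The part of these cell types in the S100a16 and S100a6 values was not tested.

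S100a14, an epithelial member that sits beside S100a16 in the cluster, was dim. It measured 6.21, 6.95 and 6.15 in heterozygous replicates 1, 2 and 3, against 6.73, 6.67 and 7.34 in wild-type replicates 1, 2 and 3. The groups overlapped through heterozygous replicate 2. The difference was -0.48 (95% interval -1.23 to 0.27, limma adjusted p = 0.933), the widest interval of the 14. It was -0.26 without wild-type replicate 3 and -0.73 without heterozygous replicate 2.

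S100a10, or p11, does not need calcium and forms a complex with annexin A2 at the plasma membrane. Its probe set 1416762_at measured 11.81, 11.92 and 11.60 in heterozygous replicates 1, 2 and 3, against 11.64, 11.86 and 11.66 in wild-type replicates 1, 2 and 3. The groups overlapped fully, with a difference of 0.06 (95% interval -0.33 to 0.45). Probe set 1456642_x_at measured 12.52, 12.42 and 11.92 in heterozygous replicates 1, 2 and 3, against 12.20, 12.49 and 12.85 in wild-type replicates 1, 2 and 3. The lowest of these is heterozygous replicate 3 and the highest wild-type replicate 3, the array with the highest 3' to 5' ratio. That difference was -0.23 (95% interval -0.85 to 0.39). It was -0.0071 with the ratio as a covariate, -0.046 without heterozygous replicate 3 and -0.063 without wild-type replicate 3. The dim S100a10 probe set, 1439348_at, differed by -0.22 (95% interval -0.84 to 0.40), with -0.48 within the arrays of lower ratio and 0.26 within those of higher ratio. The 3 probe sets of S100a10 did not move together over the arrays, with r between -0.14 and 0.65. Probe set 1456642_x_at carries the suffix _x_at, so its probes may also bind similar transcripts.

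S100a4, or metastasin, binds non-muscle myosin and is found in fibroblasts and leukocytes. It measured 8.89, 8.80 and 8.51 in heterozygous replicates 1, 2 and 3, against 8.43, 8.55 and 9.21 in wild-type replicates 1, 2 and 3. Wild-type replicate 3 stood above all other arrays, and the group means were equal to 2 decimals, at 8.73 ± 0.20 in heterozygous and 8.73 ± 0.42 in wild-type oviducts (SD, n = 3 each). The difference of 0.00 had a 95% interval of -0.63 to 0.63, and it was 0.25 without wild-type replicate 3. Macrophage markers, which can share cells with S100a4, overlapped in their summed intensity, at 6869 to 9097 in heterozygous and 6445 to 8225 in wild-type arrays. The summed intensity of the neutrophil markers did not overlap, at 14940.5 to 17913.9 in heterozygous and 11140.4 to 12244.1 in wild-type arrays. These 5 genes include S100a8 and S100a9. All 5 were higher on average and 0 passed the threshold. Of the 5, 4 did not overlap, where 11.8% of all genes did not. The summed intensity of the stromal fibroblast markers was higher without overlap, at 32975 to 38282 in heterozygous and 29908 to 32610 in wild-type arrays. Of these genes 6 of 6 had a difference above 0 and 0 passed the threshold. Taken singly, only 1 of the 6 did not overlap, where 11.8% of all genes did not. Without Col1a1 or without Col3a1 the stromal sums overlapped. The part of these cells in the S100a4 values was not tested.

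S100a1, best known in heart muscle, binds the ryanodine receptor and the calcium pump of the sarcoplasmic reticulum. Its probe set 1417421_at measured 9.99, 10.21 and 9.82 in heterozygous replicates 1, 2 and 3, against 10.05, 10.11 and 9.84 in wild-type replicates 1, 2 and 3. The groups overlapped throughout, with a difference of 0.00 (95% interval -0.41 to 0.42). Probe set 1419814_s_at measured 11.22, 11.21 and 10.93 in heterozygous replicates 1, 2 and 3, against 11.01, 11.58 and 11.60 in wild-type replicates 1, 2 and 3. Wild-type replicates 2 and 3 stood above all other arrays and wild-type replicate 1 among the heterozygous ones. The difference there was -0.28 (95% interval -0.81 to 0.26, limma adjusted p = 0.933), with 0.06 within the arrays of lower ratio and -0.37 within those of higher ratio. The S100a1 probe sets hardly followed each other over the arrays (r = 0.09). Probe set 1419814_s_at was among those left out as cross-hybridizing in an alternative fit.

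S100a13 takes part in the release of Fgf1 and interleukin 1 alpha, proteins that leave cells without using the classical secretory route. Its annotated span overlaps that of its neighbour S100a1, which is read from the other strand. It measured 9.19, 9.35 and 8.85 in heterozygous replicates 1, 2 and 3, against 8.90, 9.15 and 9.06 in wild-type replicates 1, 2 and 3. The groups overlapped, with heterozygous replicates at both ends of the range, and the difference was 0.09 (95% interval -0.36 to 0.55). Over the arrays S100a13 followed S100a10 at 1416762_at (r = 0.94) and S100a1 at 1417421_at (r = 0.69).

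S100b is a marker of Schwann cells and other glia and is also made by fat cells. Its probe set 1434342_at measured 9.44, 9.01 and 9.65 in heterozygous replicates 1, 2 and 3, against 9.40, 9.20 and 9.57 in wild-type replicates 1, 2 and 3. The wild-type values lay within the range of the heterozygous ones, and the difference was -0.02 (95% interval -0.56 to 0.51). Probe set 1419383_at measured 8.38, 7.54 and 7.69 in heterozygous replicates 1, 2 and 3, against 7.90, 8.12 and 8.19 in wild-type replicates 1, 2 and 3. Heterozygous replicate 1 was the highest and the other heterozygous arrays the lowest, so the difference of -0.20 (95% interval -0.84 to 0.44) was -0.45 without that array. Schwann cell markers overlapped in their summed intensity over 4 genes, at 954 to 1164 in heterozygous and 893 to 1423 in wild-type arrays. The summed intensity of the fat cell markers did not overlap, at 645 to 1307 in heterozygous and 231 to 320 in wild-type arrays. Of the 5 genes 4 were higher on average. Taken singly, 3 of the 5 did not overlap, where 11.8% of all genes did not. Of these 5, 0 passed the threshold and 3 had a mean below the median of all values. All wild-type values of Fabp4 and wild-type replicates 2 and 3 of Car3 were also below that median, so the size of the gap is uncertain. The part of Schwann cells and fat cells in the S100b values was not tested.

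S100g, or calbindin D9k, measured 10.06, 10.52 and 9.81 in heterozygous replicates 1, 2 and 3, against 9.58, 9.995 and 10.34 in wild-type replicates 1, 2 and 3. With each gene by its brightest probe set and dim ones left out, S100g had the largest spread of 8 genes over the 6 arrays (SD 0.34), and the genotypes were interleaved. The means were 10.13 ± 0.36 in heterozygous and 9.97 ± 0.38 in wild-type oviducts (SD, n = 3 each), a difference of 0.16 (95% interval -0.54 to 0.85, limma adjusted p = 0.955). It was 0.58 within the arrays of lower 3' to 5' ratio and -0.11 within those of higher ratio. Uterine epithelium markers, listed because S100g is abundant in the uterus, lay between 3962 and 4455 in summed intensity in heterozygous and between 3068 and 3877 in wild-type arrays. Of the 7 genes 3 had a difference above 0, with a median of -0.06. Cxcl15, a gland chemokine, measured 10.16, 10.13 and 10.37 in heterozygous replicates 1, 2 and 3, against 7.45, 8.08 and 7.63 in wild-type replicates 1, 2 and 3. Cxcl15 alone made that gap: without it the sums overlapped, at 2841 to 3248 in heterozygous and 2894 to 3606 in wild-type arrays. The part of uterine cells in the S100g values was not tested.

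**Figure D2:**
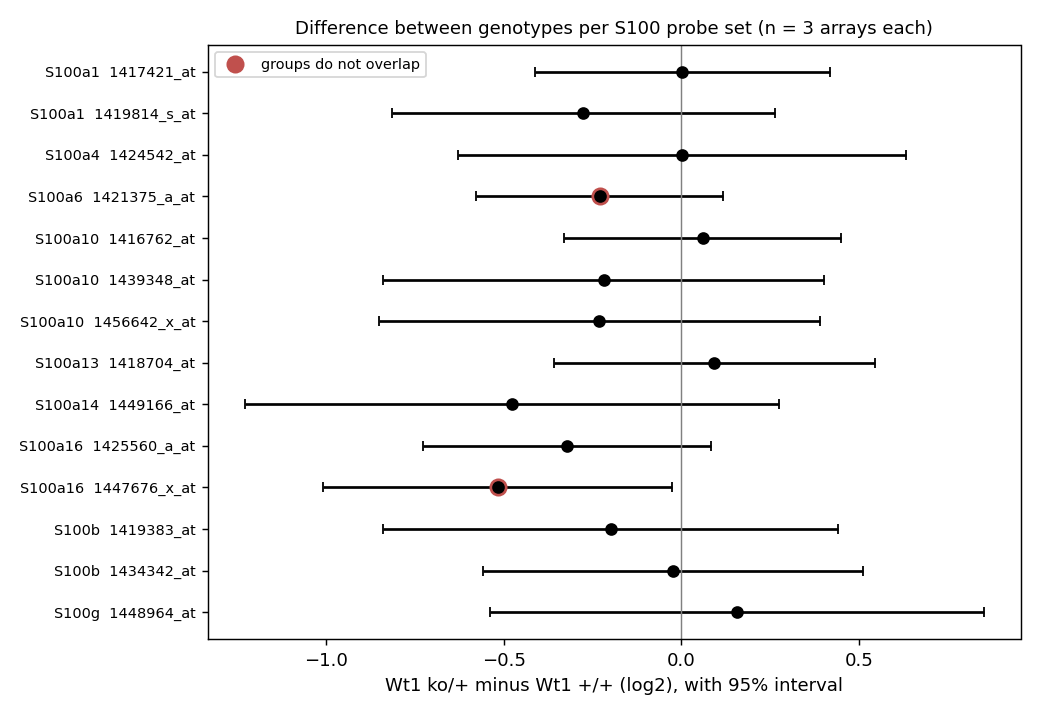
Heterozygous minus wild type on the log2 scale (x axis) for each S100 probe set, with the 95% interval of the limma fit over all probe sets and 3 arrays a genotype. The interval of the S100a16 probe set 1447676_x_at, -1.01 to -0.02, lies below 0 before adjustment for the number of probe sets, and the other 13 include 0.

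The genes whose levels were most like S100g over the 6 arrays, by Pearson r among 11710 genes above the median of all values, were Atp5md (r = 0.99), St6galnac6 (0.99) and Serping1 (0.98). For S100a10 at 1456642_x_at they were Lrrc41 (r = 0.997), Lzts3 (0.99) and Psmb6 (0.99). Many other genes came close: of the 11710, 122 had r over 0.9 with S100g and 478 with S100a10 at 1456642_x_at. Each r rests on 6 arrays. That probe set and S100a10 at 1416762_at had r = 0.35, so the likeness holds for 1456642_x_at only. These are descriptions over arrays that share RNA quality and normalization.

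**Figure D3:**
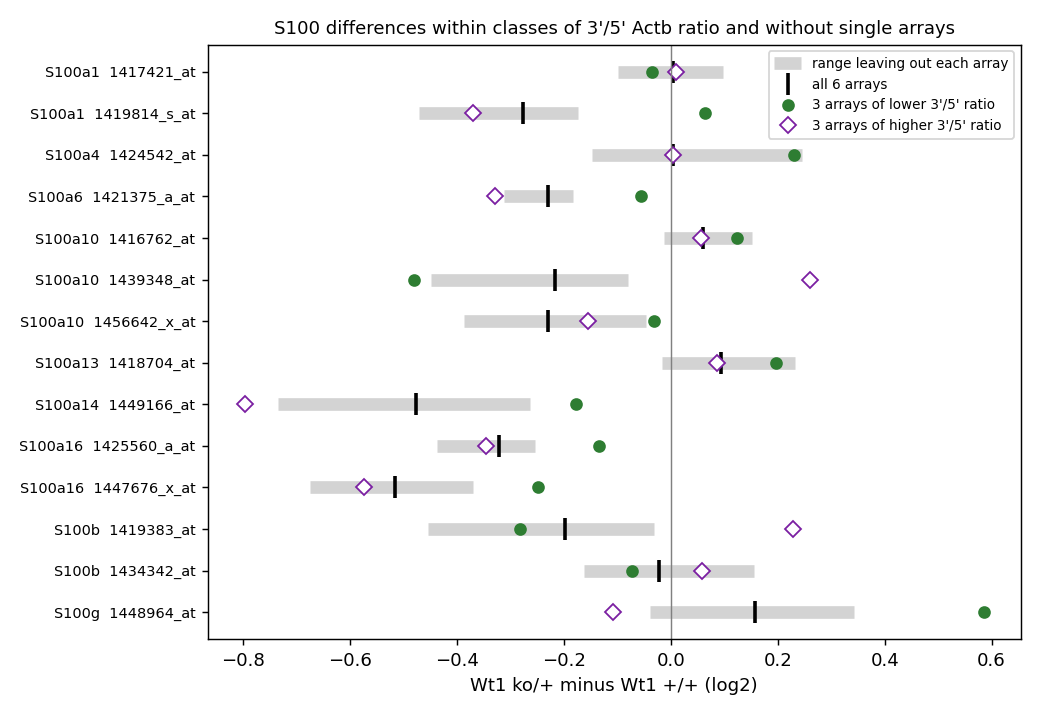
Heterozygous minus wild type on the log2 scale (x axis) for each S100 probe set over all 6 arrays (black tick), within the 3 arrays of lower (filled circle) and of higher (open diamond) 3' to 5' Actb ratio, and as the range when each array is left out (grey bar). Each class has only 1 array of 1 genotype, so its points have no error; S100g is at 0.58 in the class of lower ratio and -0.11 in that of higher ratio.

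The partners of S100 proteins were read from the fit over 18193 genes, where 0.0165% passed (3 genes) and 6.44% had an unadjusted p under 0.05. Of those genes 45.0% were above 0 and 55.0% below, and the groups did not overlap in 11.8%. Among 11 annexins 8 were higher and 3 lower, with a median of 0.08 and 0 past the threshold, beside a median of -0.03 over all genes. Anxa2, the partner of S100a10, measured 13.04, 12.92 and 12.95 in heterozygous replicates 1, 2 and 3, against 12.93, 13.10 and 12.97 in wild-type replicates 1, 2 and 3, a difference of -0.04 with overlap. The other probe sets of Anxa2 differed by 0.42 and, at a dim one, by -1.33, both with overlap. Anxa1, which binds S100a11, differed by 0.03 (standard error 0.11), and by 0.0056 with overlap at its other probe set, which was dim. Anxa9 was the annexin of smallest p. It measured 8.20, 8.01 and 7.83 in heterozygous replicates 1, 2 and 3, against 8.86, 8.995 and 8.93 in wild-type replicates 1, 2 and 3, lower in every heterozygous array. The Anxa9 difference of -0.92 (standard error 0.14) did not pass (limma adjusted p = 0.295). Anxa8 differed by -0.30 at its brightest probe set, without overlap, and by 0.01 at its other probe set, with overlap.

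Of 25 other binding partners and receptors, 14 were higher and 11 lower, with a median of 0.01 and 0 past the threshold. Cacybp, the S100a6 partner, differed by -0.34 (standard error 0.15, limma adjusted p = 0.809) and was lower in every heterozygous array. Ryr2, the S100a1 target, differed by 0.39 (standard error 0.12, limma adjusted p = 0.660) and was higher in every heterozygous array. Its other probe set, which was dim, differed by 0.70 with overlap. The smooth muscle markers given above were higher on average with 0 past the threshold, and their part was not tested. Ahnak, a giant scaffold bound by the S100a10 complex, stood at 0.19, Fgf1, the cargo of S100a13, at 0.22, and Myh9, the S100a4 target, at 0.02. Ager, the receptor for several secreted S100 proteins, was dim and differed by -0.54 at its brightest probe set and by 0.24 at its other, both with overlap. Dim probe sets of Ahnak differed by -0.49 to 0.52, all with overlap. The other probe sets of Fgf1 differed by 0.22, higher in every heterozygous array, and by 0.0029 with overlap. Those of Myh9 differed by -0.13 to 0.03, all with overlap.

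Among 10 genes of calcium transport and buffering 7 were higher and 3 lower, with a median of 0.16 and 0 past the threshold. Atp2b1, the plasma membrane pump that exports calcium handed on by S100g, measured 11.51, 11.43 and 11.40 in heterozygous replicates 1, 2 and 3, against 11.08, 11.11 and 11.19 in wild-type replicates 1, 2 and 3. It was higher in every heterozygous array, by 0.32 (standard error 0.11), and did not pass (limma adjusted p = 0.698). Its other probe sets differed by 0.46 and 0.21, with overlap. Trpv6, the entry channel, was dim and differed by 0.19 with a standard error of 0.79. Slc8a3, a sodium and calcium exchanger, was also dim and differed by -0.38 at its brightest probe set and by 0.24 at its other, both with overlap.

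Of the 7 receptors and enzymes that control S100g, 6 were higher and 1 lower, with a median of 0.07 and 0 past the threshold. The lower gene was Vdr, the vitamin D receptor. It measured 7.71, 7.47 and 6.97 in heterozygous replicates 1, 2 and 3, against 8.12, 8.08 and 8.47 in wild-type replicates 1, 2 and 3. Vdr was lower in every heterozygous array, by 0.84 on the log2 scale at the mean (a difference of -0.84, standard error 0.23, limma adjusted p = 0.607). Its value in heterozygous replicate 3 was below 7.31, the median of all values, so the size of the difference is uncertain. Its other probe set, which was dim, differed by -0.58, also without overlap. Esr1, the oestrogen receptor, differed by 0.04 (standard error 0.11), and by 0.33 and 0.10 with overlap at its other probe sets. Esr2 was dim and differed by 0.93 with overlap.

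The calprotectin genes did not pass the threshold either. S100a8 measured 9.14, 11.33 and 10.45 in heterozygous replicates 1, 2 and 3, against 5.13, 5.22 and 7.84 in wild-type replicates 1, 2 and 3, and S100a9 differed by 3.76 with the groups apart (limma adjusted p = 0.503 for each over genes). All wild-type values of S100a9 and wild-type replicates 1 and 2 of S100a8 were below 7.31, where signal above background is unknown, so the sizes of both differences are uncertain. Among 8 measured S100 and S100-fused genes outside the 9 members, 4 were higher and 4 lower, and 0 passed. S100a3 and S100a5, which lie in the cluster beside S100a16 and S100a6, differed by -0.39 (S100a3) and -0.24 (S100a5), with overlap. Both had a mean below 7.31, so whether their signal was above background is unknown. Whether the difference of S100a8 departs from that of a member was not tested.

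**Figure D4:**
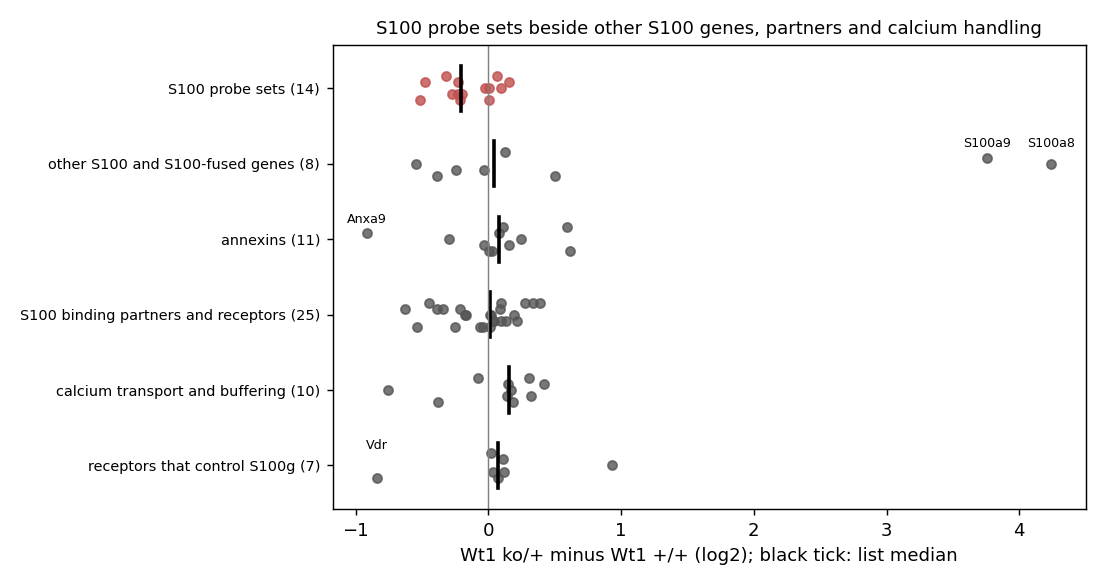
Heterozygous minus wild type on the log2 scale (x axis) for the 14 S100 probe sets and for the genes of each list, each gene by its brightest probe set, with a black tick at the list median. The S100 probe sets span -0.52 to 0.16; S100a8, at 4.24, and S100a9, at 3.76, are set against wild-type levels that are mostly dim.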

How the data were processed

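Oviduct RNA (1 µg per sample) was labelled with biotin and measured on a 1-colour 3' expression array, 1 array per sample, per the labels. For every probe set the authors deposited a linear intensity, already scaled to a common mean, as the values show. How probes were summarised is not given in the sources used, and no detection calls were used. After 64 control probe sets were left out, intensities under 1 were set to 1, log2 transformed and quantile normalized, because array medians differed by 0.147, over a limit of 0.1. Fits used limma 3.58.1 (lmFit, eBayes) in R 4.3.3, over probe sets and over genes, each gene by its probe set of highest mean. Errors beside differences are the fit's standard errors or 95% intervals. An exact permutation test over 3 against 3 arrays has 20 assignments and a smallest two-sided p of 0.1. Precision is limited by the number of arrays. Of the probe sets, 34945 had 1 gene symbol, 932 had several and 9160 had none here.

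The members, gene lists, tests and alternatives were chosen with earlier results of these data known. Named were all member probe sets, a fixed set of partners (Anxa11 had no probe set of its own symbol), up to 2 genes per list of smallest p, and 3 genes most like each of the 2 most variable members; Foxj1, Spag6, Dnah5, Tppp3, Col1a1, Col3a1, Cxcl15, S100a3, S100a5 and the members whose promoters are printed were picked after their values were seen, and Ovgp1 and Wt1 as checks. On simulated data with all 45037 probe sets of this comparison, 6% of 100 probe sets shifted by 1 on the log2 scale and 66% of 100 shifted by 2 were recovered, with 6 false calls. The shifted probe sets were drawn only from those with a mean above the median of all values, and all shifts were upward. The S100 differences span -0.52 to 0.16, smaller than any simulated shift, so recovery at such sizes is not known. Noise was independent, with no effect shared within an array, so recovery of dim probe sets or under unequal RNA quality is not known. Alternatives were the deposited scaling, log2 of intensity plus 16, a filter on dim probe sets, robust fitting with a trend, a block for the replicate number, array weights, the 3' to 5' ratio as covariate or block, other rules for probe sets, and leaving out each array. Leaving each gene out of a marker sum was added after seeing the data.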

Additional observations from a re-analysis of the deposited data

How the results depend on the processing

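None of the 14 S100 probe sets passed under any of the 15 alternatives run (lowest adjusted p 0.307), and 8 of the 14 differences kept their sign in all that held them; the filter on dim probe sets held 12 of the 14 and the set without cross-hybridizing probe sets 11. At an unadjusted p under 0.05 the S100 count of 1 ranged from 0 to 3. It was 0 with the replicate block or either use of the 3' to 5' ratio. Without wild-type replicate 2 or 3, or heterozygous replicate 1 or 3, it was also 0. With cross-hybridizing probe sets left out it was 0 as well. That rule removes S100a16 at 1447676_x_at, the only probe set counted in the main fit, so that 0 says nothing about its difference. It was 3 of 14 without wild-type replicate 1, where 4285 of all 45037 probe sets stood, against 2334 in the main fit. Robust fitting with a trend gave 3 beside 2444 of all, and array weights gave 2 beside 5893. The median of the other S100 and S100-fused genes, 0.04, was 3.76 under the filter on dim probe sets, which holds fewer of them, and -0.11 with array weights; in all, 7 of 75 list medians moved. Differences near 0 turned sign. S100a1 at 1417421_at was -0.025 with array weights, -0.074 with the 3' to 5' ratio as covariate, -0.013 with its classes as block and -0.10 to 0.10 over the fits that left out an array. S100b at 1434342_at was 0.025 with array weights, 0.065 with the ratio as covariate, 0.06 to 0.16 where positive without an array, and -0.16 to 0.16 over those fits. S100a10 at 1416762_at was -0.0012 with array weights and -0.012 to 0.15 without an array, S100a4 -0.15 to 0.25, S100a13 -0.016 to 0.23 and S100g -0.039 to 0.34. The cause of these turns was not tested.

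Over all probe sets the count of 3 became 1 with intensity plus 16, 14 with array weights, and 0 with the replicate block, the ratio as covariate or its classes as block. It was 0 to 1 without an array. Over genes the count of 3 became 1 with the filter on dim probe sets or robust fitting with a trend, 7 under array weights, 0 with the replicate block and either use of the ratio, and 0 without any array. No label says whether the replicate numbers pair the samples. Deviations of same-numbered arrays correlated at -0.10, -0.03 and -0.08 across genes. With 3 arrays a genotype of unequal 3' to 5' ratio, these values cannot settle whether samples were paired. With the replicate block 0 S100 probe sets passed, as without it. Without an array the fits rest on 5 arrays. Probe sets below the median of all values, S100a14 and S100a10 at 1439348_at, may lie near background.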

Other observations

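The probe set left out because its annotation names S100a11 and 2 pseudogenes was bright and steady. It measured 13.57, 13.51 and 13.62 in heterozygous replicates 1, 2 and 3, against 13.65, 13.64 and 13.62 in wild-type replicates 1, 2 and 3, a log2 difference of -0.07 with overlap (95% interval -0.38 to 0.25, limma adjusted p = 0.961). How much of that signal came from S100a11 cannot be told from a probe set with 3 names.

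Wild-type replicate 3 held the highest value for 6 of the 14 S100 probe sets, where it held the highest for 26.2% of all 45037. Heterozygous replicate 3 held the lowest for 8 of the 14, where it held the lowest for 15.8% of all. Probe sets of 1 gene are not independent, and these counts were noticed in the data and not tested. Between probe sets of different S100 genes, r over the 6 arrays ranged from -0.97 to 0.94 over 85 pairs, with a median of 0.36; S100a1 at 1417421_at and S100b at 1434342_at ran most opposite. These are descriptions over arrays that share RNA quality and normalization.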
